A study of Mus musculus with 14 samples.

Results

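The 8 genes described here encode receptors for the Fc part of IgG or proteins that act with them, and were followed in sorted spinal microglia: Fcgr1, Fcgr2b, Fcgr3, Fcgr4, Fcer1g, Syk, Fcgrt and Trim21. They were taken by their symbols, all 8 were found among the 14329 genes with deposited values, and all 8 were among the 12645 genes that reached 10 reads in 7 or more libraries and were tested. The RNA came from CD45low CD11b+ CX3CR1+ cells, 2000 per library, sorted from the dorsal lumbar spinal cord of 6-month-old male and female mice on the C57BL/6 background at day 5 after the first serum injection. The 4 groups were WT mice given control serum (WT Control ST, n = 3) or K/BxN serum (WT K/BxN ST, n = 4) and TASTPM mice given either (TASTPM Control ST, n = 3, and TASTPM K/BxN ST, n = 4), where ST stands for serum transfer. TASTPM mice were heterozygous for transgenes that include a human APP gene with the Swedish mutation, driven by the neuronal Thy-1 promoter, and the WT mice were animals of the same backcross without the transgenes. K/BxN serum, which carries arthritogenic autoantibodies, was injected on days 0 and 2, and the control groups received pooled serum of KRN/C57 mice, so that every library comes from mice given serum of other mice. The labels do not tie libraries to animals, and by the study's methods the replicates are individual mice. Before staining, cells were incubated with antibodies to CD16 and CD32, the proteins of Fcgr3 and Fcgr2b, in all groups alike, and any part of this in the RNA levels was not tested. Replicates 1 to 4 of TASTPM K/BxN ST carry their own labels, and the libraries of the other groups are named in the order in which their values were deposited.

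Values are normalized counts, that is, reads per gene after scaling each library by its own size factor. The libraries held 14223015 to 20239175 reads on genes, and the 8 genes had between 300 reads (Fcgr4) and 54220 reads (Fcgr3) in a library, so that the error from sampling reads is small beside the spread between libraries for each of them. The cDNA was amplified before sequencing, and the sampling of molecules before that step was not measured. All 10 microglial markers examined were present in every library. In 4 libraries, TASTPM K/BxN replicates 1 and 2 and the first and second WT K/BxN libraries, markers of monocytes and neutrophils together took 3.13% to 5.35% of the reads, against 0.109% to 0.164% in the other 10, although the sorting gate left out Ly6C+ and CCR2+ cells. The neutrophil markers were not alike in the 4. Ly6g, which defines neutrophils, was at 440, 567 and 868 normalized counts in 3 of them and at 0 in the second WT K/BxN library, where S100a8 was at 143 against 39499 to 53594 in the other 3, while Mmp8 was at 3245. In those 4 libraries all 10 classical monocyte markers and 6 of 7 non-classical monocyte markers were above every other library, as were 2 of 10 neutrophil markers and 4 of 7 markers of border-associated macrophages, and 7 of 10 microglial markers were below every other library. No marker of T and NK cells (0 of 7) or of mast cells and basophils (0 of 5) was among the deposited genes. In bulk RNA, fewer cells of a type and less RNA per cell cannot be told apart. Results are therefore given with and without these 4 libraries, and the part of the other cells' markers in the results was not tested.

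Fc gamma receptors bind the constant part of IgG and let a phagocyte recognise antibody-coated particles and immune complexes. In the mouse Fcgr1, Fcgr3 and Fcgr4 encode activating receptors (CD64, CD16 and CD16-2) that need the Fc receptor gamma chain, the product of Fcer1g, whose ITAM motif is phosphorylated by Src family kinases and then docks the kinase Syk, while Fcgr2b encodes the inhibitory receptor CD32B, which recruits phosphatases. Fcgrt encodes the heavy chain of the neonatal Fc receptor FcRn, which salvages IgG from endosomes and works with beta-2 microglobulin, and Trim21 encodes a cytosolic IgG receptor and ubiquitin ligase. K/BxN serum causes arthritis through immune complexes of its autoantibodies, and the comparison of serum groups asks whether the receptors for such complexes differ in spinal microglia.

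In GRCm39 Fcgr2b, Fcgr4, Fcgr3 and Fcer1g lie close together on chromosome 1, with Fcgr2b at chr1:170786186-170804177 (minus strand), Fcgr4 at chr1:170846466-170857330 (plus strand), Fcgr3 at chr1:170878738-170893549 (minus strand) and Fcer1g at chr1:171057141-171062219 (minus strand). The other genes lie elsewhere, Fcgr1 at chr3:96190225-96201338 (minus strand), Syk at chr13:52736696-52802828 (plus strand), Fcgrt at chr7:44742412-44756819 (minus strand) and Trim21 at chr7:102207128-102214704 (minus strand). The receptor genes are close relatives, which matters for how reads are assigned. Exon 4 of the canonical transcripts of Fcgr2b (chr1:170794015-170794269) and Fcgr3 (chr1:170881508-170881762), both coding and on the minus strand, is shown because it had the highest identity of the coding exon pairs of equal length and at least 60 bases that were compared between the 4 receptors. The capitals mark the bases that differ.
Fcgr2b exon 4: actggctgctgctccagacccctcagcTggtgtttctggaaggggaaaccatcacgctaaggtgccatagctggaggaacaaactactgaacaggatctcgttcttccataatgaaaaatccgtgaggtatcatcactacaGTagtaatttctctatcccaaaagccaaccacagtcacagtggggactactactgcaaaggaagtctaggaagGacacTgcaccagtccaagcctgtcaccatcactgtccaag
Fcgr3 exon 4: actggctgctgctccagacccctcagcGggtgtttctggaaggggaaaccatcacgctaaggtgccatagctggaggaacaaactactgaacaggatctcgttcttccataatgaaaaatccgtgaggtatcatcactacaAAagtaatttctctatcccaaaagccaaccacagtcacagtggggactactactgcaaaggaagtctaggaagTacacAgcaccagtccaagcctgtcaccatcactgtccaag
Of the 255 bases 250 are identical (98.0%) and 5 differ, and the longest identical stretch within the exon is 113 bases. Across whole canonical transcripts the longest stretch that Fcgr2b and Fcgr3 share is 129 bases, shorter than the 150-base reads. The corresponding exon 3 of Fcgr2b and Fcgr4 has 61.6% identical bases. Fcgr2b is the only one of the 8 genes with 150-base windows found in other genes' transcripts, 164 of 3254 windows (5.04%), none of them from a gene of the 8, and 355 of its exonic bases overlap Gm38204 on the opposite strand. Levels of Fcgr2b and Fcgr3 may therefore carry an uncertainty of read assignment, whose size was not measured. Whether the counting used strand is not given in the sources used here.

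The promoters in RefSeq's table (GRCm38.p6, all 8 genes matched) run from 250 bases before to 50 bases after a start, and the 250 upstream bases of each were found once in GRCm39. Stretches of Fcgr1, Fcgr4 and Trim21 are shown because these genes carry letters of interferon response motifs. Capitals mark TTCNNNGAA (the gamma-activated sequence), the core of the interferon-stimulated response element (a pair of GAAA with 2 bases between them) and GAGGAA (a purine box of the PU.1 type), each searched on both strands.
Fcgr1, chr3:96201316-96201435, minus strand, 150 to 31 bases before the start: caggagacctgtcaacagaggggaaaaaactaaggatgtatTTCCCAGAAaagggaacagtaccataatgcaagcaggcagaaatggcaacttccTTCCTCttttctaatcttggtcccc
Fcgr4, chr1:170846375-170846494, plus strand, 120 to 1 bases before the start: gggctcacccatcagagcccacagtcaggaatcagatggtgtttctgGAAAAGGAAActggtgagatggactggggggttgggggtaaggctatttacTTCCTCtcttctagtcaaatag
Trim21, within the 50 bases after its start: aGAGGAAACTGAAAGTGAAAtttg
The start meant here is that of RefSeq's table, and 23 of the bases shown for Fcgr1 and 29 of those for Fcgr4 lie inside the gene as placed above by GENCODE, which begins further upstream. In Fcgr1 the gamma-activated sequence began 109 bases and the purine box 55 bases before the start. In Fcgr4 the response element began 73 bases and the purine box 22 bases before it. The Trim21 site holds 2 overlapping response element matches, which began 14 and 20 bases after the start, and a purine box that began at 11 and overlaps the first of them. No match of the interferon motifs was in the windows of Fcgr2b, Fcgr3, Fcer1g, Fcgrt or Syk, and Fcgr3 and Syk held a purine box. Of 32851 promoters of the same length, 8.30% held the gamma-activated sequence, 3.44% the response element and 28.3% the purine box, and a match is a description of letters and not a site.

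Per kilobase of exons the gamma chain and the low-affinity activating receptor stood far above the rest. Fcer1g had 23040.3 ± 4052 normalized counts per kb (SD, n = 14) and Fcgr3 12715 ± 2416, above 99.8% and 99.7% of the 14268 genes with a length. Fcgr1 followed with 2158 ± 593 and Fcgr2b with 1859.8 ± 171, then Fcgr4 with 834 ± 526 and Fcgrt with 600.3 ± 95.3. Syk with 238 ± 50.9 and Trim21 with 172 ± 58.5 were lowest, though still above 84.1% and 78.7% of genes. The ranges of Fcer1g and Fcgr3, of Fcgr3 and Fcgr1, and of Fcgrt and Syk did not overlap over the 14 libraries. Fcgr1 and Fcgr2b were not separated, with Fcgr1 the higher in 9 of 14 libraries, and neither were Fcgr4 and Fcgrt, with Fcgr4 the higher in 9 of 14. With the length of the longest annotated transcript in place of all exons, Fcgr2b came before Fcgr1 and Fcgrt before Fcgr4, and no other position in the order changed, though Fcer1g then exceeded Fcgr3 in 12 of 14 libraries only.

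**Figure D1:**
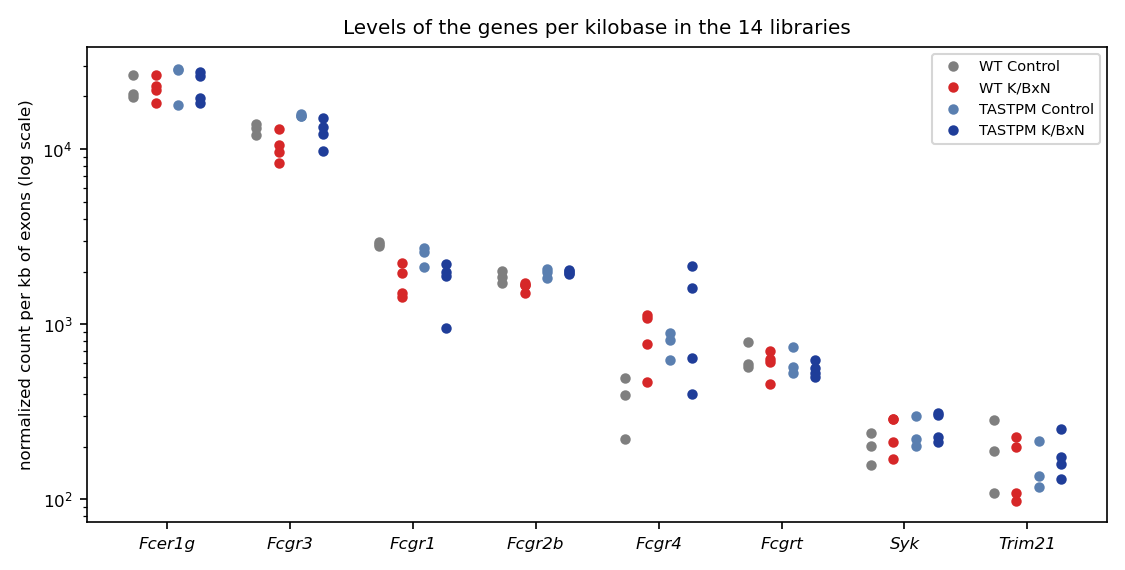
Normalized counts per kilobase of exons (log axis) of the 8 genes in the 14 libraries, coloured by group, ordered by mean level. Fcer1g and Fcgr3 lie above every value of the other 6 genes, and the points of Fcgr4 are the most widely spread.

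No gene of the 8 passed the test in any comparison, in a setting in which almost nothing did. A call needs an absolute log2 difference above 1, which of the 8 only Fcgr4 reached. In WT the serum comparison called 0 of the 8 genes, and over all tested genes 0.00791% were called (1 gene, Rarg, the retinoic acid receptor gamma, singled out after its values were seen, at 44.7 to 254 in the WT K/BxN libraries and at 0 in all 3 WT Control libraries, limma adjusted p = 0.0321). In TASTPM the serum comparison called 0 of the 8, as it did of all tested genes (0.0%). The interaction of genotype and serum (0.0%), the comparisons of genotypes within Control ST (0.0%) and within K/BxN ST (0.0%) and the serum comparison averaged over genotypes (0.0%) likewise called no gene of the 8. Before adjustment, 902 of the 12645 genes had a limma p below 0.05 in WT and 533 in TASTPM, and 2 and 0 of the 8 genes were among them. DESeq2 on the recovered reads called 127 genes in WT, 16 in TASTPM and 179 averaged over genotypes, and edgeR called 0, 0 and 0; neither called a gene of the 8. All log2 differences are limma estimates on the log2(normalized count + 1) scale, which understates the change of low genes.

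**Figure D2:**
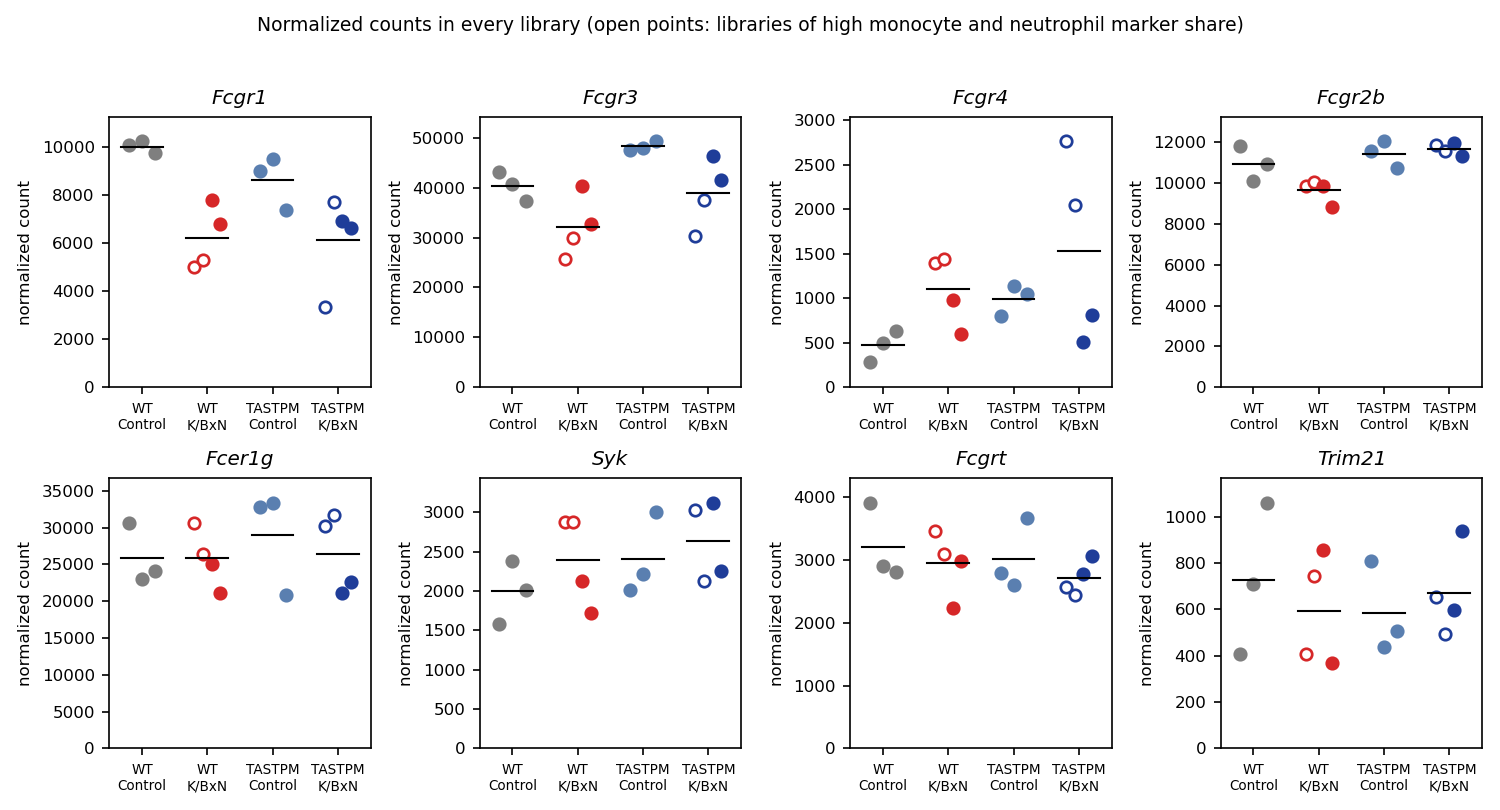
Normalized counts of the 8 genes in every library by group, with a bar at the group mean and open points for the 4 libraries of high monocyte and neutrophil marker share. Fcgr1 is lower in all 4 WT K/BxN libraries than in the 3 WT Control libraries, and the 2 highest values of Fcgr4 are the open TASTPM K/BxN points.

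Fcgr1 encodes CD64, the only high-affinity IgG receptor of the set, which binds monomeric IgG. In WT Control ST it had 10077, 10235 and 9748 normalized counts (mean 10020.0 ± 249, SD, n = 3), and in WT K/BxN ST 4991, 5297, 7779 and 6812 (6219 ± 1309, n = 4). All 4 K/BxN libraries were below all 3 Control libraries, and the lower values were those of the first and second libraries, which had the high marker share. Such a separation, K/BxN below Control, was found for 3.71% of all tested genes, and for Fcgr1 and Fcgr2b among the 8. This gave a log2 difference of −0.71 (SE 0.26, limma adjusted p = 0.642), and the two-sided exact permutation p was 0.0571, where the smallest possible is 0.0286. Without the 4 libraries it was −0.46 (limma adjusted p = 1).

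In TASTPM Control ST Fcgr1 was at 9018, 9515 and 7381 normalized counts (8638 ± 1117, n = 3), and the 4 replicates of TASTPM K/BxN ST had 3332, 7721, 6939.6 and 6613 (6151 ± 1936, n = 4). Of the 4 K/BxN replicates 3 lay below every Control library, and replicate 2 lay inside the Control range. The log2 difference was −0.55 (limma adjusted p = 0.964, exact permutation p = 0.171), and −0.34 without the 4 libraries. Averaged over genotypes the difference was −0.63 (SE 0.18), a fold of 0.646 with a 95% confidence interval of 0.492 to 0.847. It ranked 100 of 12645 genes by the size of p, with an adjusted p of 0.475 by limma, 0.0743 by DESeq2 and 0.360 by edgeR. Permuting libraries within genotypes gave an exact p of 0.00571, one of 40 exact tests run over the 8 genes and 5 comparisons. Without the 4 libraries the averaged difference was −0.40 (limma adjusted p = 0.966). Over the 23 alternatives of each comparison Fcgr1 stayed lower under K/BxN ST in WT (−0.83 to −0.46) and in TASTPM (−0.68 to −0.28). No alternative called it, nor could one, since a call needs an absolute log2 difference above 1.

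Fcgr3 encodes CD16, the low-affinity activating receptor for immune complexes, and had the highest normalized counts of the 8 genes in every library but 1, the first of WT K/BxN ST. It was at 43117, 40795 and 37318 normalized counts in WT Control ST and at 25711, 29857, 40395 and 32666 in WT K/BxN ST. The K/BxN library at 40395, which is of low marker share, lay inside the Control range, and the other 3, of which 2 are of high marker share, were below it. The fitted log2 difference came to −0.35 (SE 0.21, limma adjusted p = 0.742), and −0.15 without the 4 libraries.

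In TASTPM Control ST Fcgr3 was at 47652, 47969 and 49264, a narrow range, and in TASTPM K/BxN ST at 30224, 37505, 46440.0 and 41512. Every K/BxN replicate was below every Control library, a separation that 2.74% of all tested genes showed and 1 of the 8. The log2 difference was −0.33 (SE 0.21, limma adjusted p = 0.964, exact permutation p = 0.0571), and −0.14 without the 4 libraries, where both remaining replicates still lay below Control. Averaged over genotypes it was −0.34 (limma adjusted p = 0.536) with all libraries and −0.14 without the 4, so that the size of the difference moved by more than 1.5 times. In TASTPM K/BxN replicates 1 to 4 the monocyte marker Ly6c2 was at 29133, 15646, 12.9 and 10.2 normalized counts. The microglial marker P2ry12 was at 34656, 79939.5, 107606 and 110310 in the same replicates. The part of such markers in the result was not tested.

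Fcgr4 encodes CD16-2, a receptor of intermediate affinity that binds IgG2 complexes and is known from monocytes, macrophages and neutrophils. It was the most variable of the 8, with a 9.81-fold range over the libraries. In WT Control ST it was at 281, 502 and 628 normalized counts (471 ± 176, n = 3) and in WT K/BxN ST at 1391, 1441, 982 and 599 (1103 ± 394, n = 4). Of the 4 K/BxN libraries 3 were above every Control library, and the fourth lay just inside the range. On the log2 scale the difference was 1.22 (SE 0.51, limma adjusted p = 0.684, exact permutation p = 0.0857), with a 95% confidence interval of 0.14 to 2.30, which as a fold is 2.33. Without the 4 libraries it was 0.78.

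In TASTPM the same gene was at 797, 1141 and 1044 under Control ST (994 ± 177, n = 3) and at 2759, 2048, 513 and 816 in K/BxN replicates 1 to 4 (1534 ± 1052, n = 4). Replicates 1 and 2 were above every other library of the study, replicate 3 was below the Control range and replicate 4 inside it. The log2 difference was 0.34 (limma adjusted p = 0.968), and without the 4 libraries its sign turned to −0.60. All 4 libraries of high marker share, at 1391 to 2759, exceeded all 10 others, at 281 to 1141. The share of all tested genes with such a separation was not computed. The summed classical monocyte markers were at 368722 to 685723 normalized counts in those 4 and at 8963 to 23350 in the other 10, and the summed non-classical monocyte markers at 2645 to 6074 and at 109 to 346. The summed neutrophil markers overlapped, at 10338 to 218835 in the 4 and at 4060 to 11934 in the 10. That sum holds Csf3r, which was not higher in the 4, at 3684 to 6811 against 3960 to 10517 in the 10. The second WT K/BxN library, with Fcgr4 at 1441, had Ly6g at 0. The part of these markers in the level of Fcgr4 was not tested. The 10 other libraries were not free of such markers, with S100a9 at up to 1525 and Lyz2 at up to 22933 normalized counts. Fcgr4 had at least 300 reads in each of these libraries.

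Fcgr2b, the inhibitory receptor, was the steadiest. Its pooled SD within groups was 0.085 on the log2 scale, and 0 of the 12645 tested genes had a smaller one. In WT Control ST it was at 11813, 10086 and 10920.3 normalized counts and in WT K/BxN ST at 9865, 10068, 9866 and 8806. All 4 K/BxN libraries were below all 3 Control libraries, though the highest of the former and the lowest of the latter nearly met. K/BxN minus Control was, on the log2 scale, −0.18 (SE 0.14, limma adjusted p = 0.787), or a fold of 0.883 (95% confidence interval 0.714 to 1.09), and the exact permutation p was 0.0286, the smallest the design allows. This SE is not from the spread of Fcgr2b alone. Limma moves each gene's variance towards a trend over genes of similar level, which here widened the interval. Without the 4 libraries the log2 difference was −0.23.

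In TASTPM Fcgr2b did not separate the serum groups, at 11564, 12032 and 10731 under Control ST and at 11843, 11559.5, 11956 and 11307 under K/BxN ST. Its log2 difference was 0.029 with a 95% confidence interval of −0.28 to 0.34, and 0.025 without the 4 libraries. Between the high-marker libraries and the rest Fcgr2b overlapped fully, at 9865 to 11843 and 8806 to 12032.

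Fcer1g, the gamma chain through which the activating receptors signal, had no serum difference in either genotype beyond its spread. It was at 30649.9, 23071 and 24079 normalized counts in WT Control ST and at 30595, 26469, 25111 and 21187 in WT K/BxN ST, a log2 difference of −0.0060 (95% confidence interval −0.50 to 0.49). In TASTPM it was at 32773, 33428 and 20799.6 under Control ST and at 30173, 31798, 21150.0 and 22568 under K/BxN ST, a log2 difference of −0.12 (−0.62 to 0.37). The groups overlapped in both genotypes. Within K/BxN ST the highest values of each genotype were those of the 2 libraries of high marker share, and without the 4 the log2 difference was −0.16 in WT and −0.38 in TASTPM (limma adjusted p = 0.996).

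Syk, the kinase that docks on the phosphorylated gamma chain, was at 1578, 2386 and 2017 in WT Control ST and at 2874, 2869.6, 2121 and 1713 in WT K/BxN ST. The first and second K/BxN libraries were above every Control library. The log2 difference was 0.25 (limma adjusted p = 0.811) and turned to −0.044 without the 4 libraries. In TASTPM it was at 2015, 2213 and 3005 under Control ST and at 3032, 2127, 3123 and 2259 under K/BxN ST, with a log2 difference of 0.13 (limma adjusted p = 0.969), and 0.16 without the 4.

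Fcgrt and Trim21, the receptors that meet IgG inside the cell, overlapped between all groups. Fcgrt ranged from 2237 to 3915 normalized counts over the 14 libraries, with log2 differences of −0.12 in WT and −0.14 in TASTPM (limma adjusted p = 0.892 and 0.966), and of −0.30 and −0.037 without the 4 libraries. Trim21 ranged from 367 to 1062, with log2 differences of −0.28 in WT and 0.21 in TASTPM (limma adjusted p = 0.871 and 0.969), and of −0.27 and 0.41 without them. The interval of Trim21 in WT, from −1.12 to 0.56, was the widest after that of Fcgr4.

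**Figure D3:**
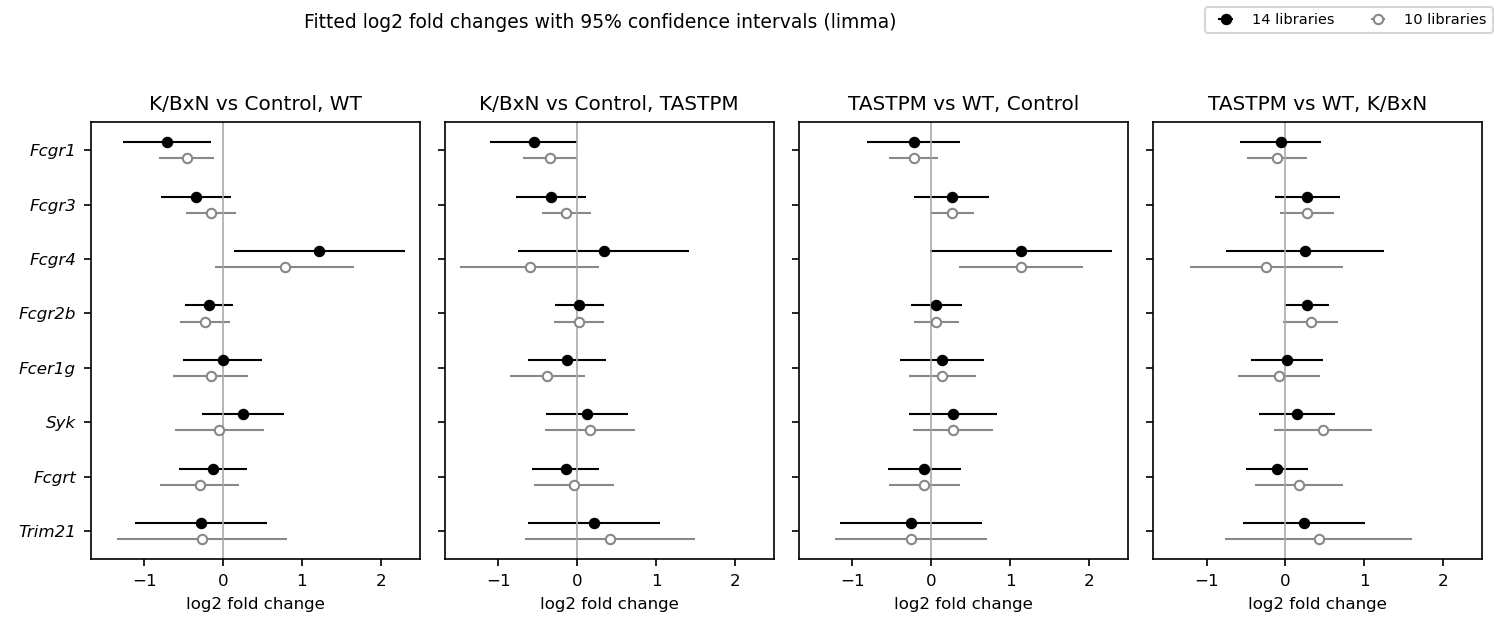
Limma log2 fold changes of the 8 genes with 95% confidence intervals in 4 comparisons, from all 14 libraries (filled) and from the 10 libraries of low marker share (open). Fcgr1 is below 0 in both serum comparisons with either set, and the estimate of Fcgr4 in TASTPM changes sign between the sets.

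Whether the serum difference itself differed between genotypes was tested by the interaction term. For Fcgr4 it was −0.89 (SE 0.72, limma adjusted p = 0.999), that is, the K/BxN difference was smaller in TASTPM by this amount, and −1.38 without the 4 libraries (limma adjusted p = 0.998). The interaction was 0.16 (95% confidence interval −0.62 to 0.94) for Fcgr1, 0.018 (−0.61 to 0.65) for Fcgr3 and 0.21 (−0.22 to 0.64) for Fcgr2b. It was 0.49 for Trim21 and −0.12 for both Fcer1g and Syk, and none of the 8 had a limma p below 0.05 with all libraries. Among the alternatives the smallest unadjusted p of Fcgr4 was below 0.05, and no other gene of the 8 had one. With the 10 libraries of low marker share alone, the interaction was 0.68 for Trim21, −0.22 for Fcer1g and 0.21 for Syk. The intervals remain wide enough that equal serum differences in the 2 genotypes are not shown either.

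Between genotypes under Control ST, where no library had a high marker share, Fcgr4 and Fcgr3 were higher in all 3 TASTPM libraries than in all 3 WT libraries, and Fcgr1 was lower in all 3. Full separation was found for 4.97% of all tested genes in the higher direction and for 4.71% in the lower, and the exact permutation p of each was 0.100, the smallest that 3 against 3 can give. The log2 difference, TASTPM minus WT, was 1.14 for Fcgr4 (SE 0.54, limma adjusted p = 0.883), from means of 471 and 994. It was 0.26 for Fcgr3 (limma adjusted p = 0.956), and −0.22 for Fcgr1 (limma adjusted p = 0.983). With the spread estimated from the 10 libraries of low marker share, the limma adjusted p was 0.655 for Fcgr4 and 0.858 for Fcgr3. For the other 5 genes the log2 differences lay between −0.26 (Trim21) and 0.27 (Syk), and the groups overlapped.

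Under K/BxN ST the gene that separated the genotypes was Fcgr2b. All 4 TASTPM replicates, at 11307 to 11956 normalized counts, were above all 4 WT libraries, at 8806 to 10068, and 1.16% of all tested genes showed this separation in the same direction. The estimated log2 difference was 0.28 (SE 0.13), a fold of 1.21 with a 95% confidence interval of 0.994 to 1.47 (limma adjusted p = 1.00, exact permutation p = 0.0286, the smallest that 4 against 4 can give). It ranked 273 by the size of p, and it was 0.23 to 0.32 over the 23 alternatives. Here too the limma interval rests on the moderated variance, which exceeds the spread of Fcgr2b alone. Fcgr3 had a log2 difference of 0.28 with 2 of 4 TASTPM replicates above every WT library, and Fcgr4 one of 0.25 that turned to −0.24 without the 4 libraries. The comparisons of genotypes and of sera share groups, so that these values are not independent of those above.

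Ratios between receptors within a library do not depend on the scaling between libraries. They were chosen after the values were seen and are given without a test. The ratio of activating Fcgr3 to inhibitory Fcgr2b was 3.42 to 4.04 in WT Control ST, 2.61, 2.97, 4.09 and 3.71 in WT K/BxN ST, 3.99 to 4.59 in TASTPM Control ST and 2.55, 3.24, 3.88 and 3.67 in TASTPM K/BxN replicates 1 to 4. The 4 libraries of high marker share, at 2.55 to 3.24, were below the 10 others, at 3.42 to 4.59. In contrast, Fcgr4 relative to Fcgr1 was 0.265 to 0.828 in those 4 and 0.0279 to 0.141 in the 10 others, and Fcer1g relative to Fcgr3 was 0.848 to 1.19 and 0.422 to 0.711. The ratios of Fcgr1 to Fcgr3, at 0.1102 to 0.206 in the 4 and 0.149 to 0.261 in the 10, and of Fcgr1 to Fcgr2b, at 0.281 to 0.668 and 0.580 to 1.01, overlapped.

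The ratios share genes, and no share over other gene pairs was computed, so that their values by group are given as a description only. Fcgr4 relative to Fcgr1 was 0.0279, 0.0491 and 0.0645 in the WT Control libraries and 0.279, 0.272, 0.126 and 0.0879 in the WT K/BxN libraries. In TASTPM it was 0.0884, 0.120 and 0.141 under Control ST and 0.828, 0.265, 0.07398 and 0.123 under K/BxN ST, and the sera overlapped. Fcgr1 relative to Fcgr2b was 0.853 to 1.01 and 0.506 to 0.788 in these groups, and 0.688 to 0.791 and 0.281 to 0.668 in the TASTPM groups. Fcgr1 relative to Fcgr3 was 0.234, 0.251 and 0.261 in the WT Control libraries and 0.194, 0.177, 0.193 and 0.209 in the WT K/BxN libraries, of which the last 2 had a low marker share. In TASTPM it was 0.189, 0.198 and 0.150 under Control ST and 0.1102, 0.206, 0.149 and 0.159 under K/BxN ST, with overlap between the sera.

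**Figure D4:**
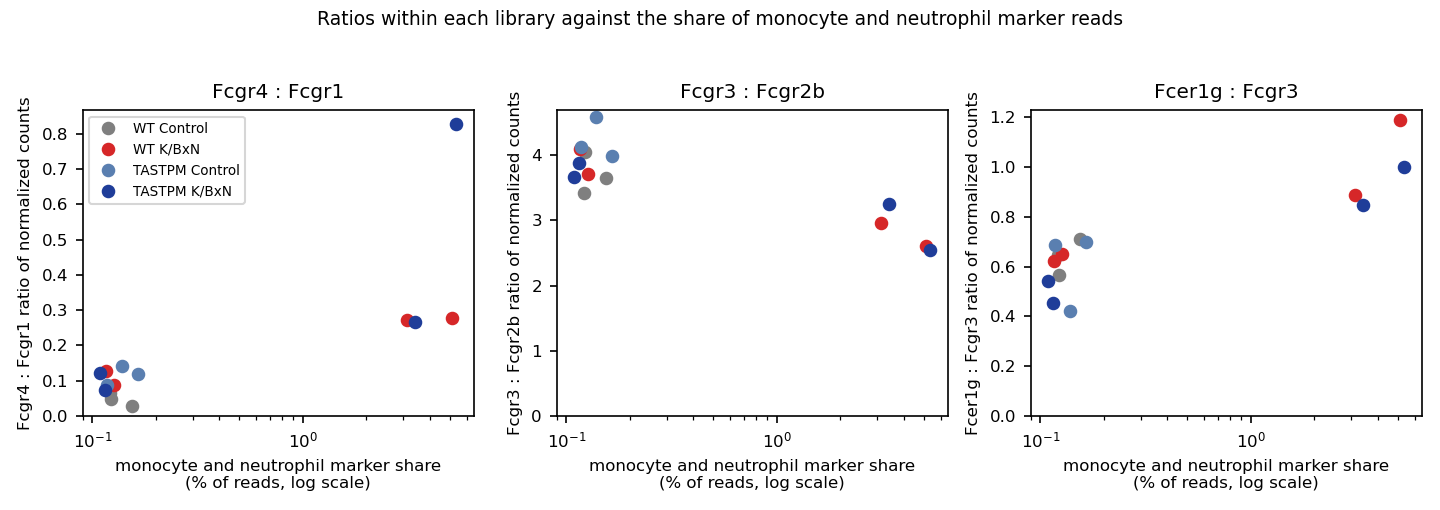
Ratios of normalized counts within each of the 14 libraries (vertical axes, from 0) against the share of reads on monocyte and neutrophil markers in percent (log axis), coloured by group. The 4 libraries at 3.13% to 5.35% lie apart from the 10 others in the 3 ratios plotted, whereas the ratios of Fcgr1 to Fcgr3 and to Fcgr2b, not plotted, overlapped.

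Of 102 further genes listed for the pathway by function, 90 were in the deposited values and 86 were tested; the lists were drawn up with earlier results of these data known. None was called in any of the 6 comparisons. Before adjustment, 5 of the 86 were higher and 1 lower under K/BxN ST in WT at a limma p below 0.05, where 4.77% and 2.36% of all tested genes were. In TASTPM 4 were higher and 6 lower, beside 2.62% and 1.6% of all tested genes. For Src family kinases, which phosphorylate the ITAM, the median log2 difference of the 6 genes was 0.033 in WT and 0.070 in TASTPM, beside 0.057 and 0.0056 over all tested genes, and without the 4 libraries it was 0.085 and 0.13. Of these, Lyn had −0.12 in WT, which turned to 0.068 without the 4. Src had −0.19 in WT and −0.85 in TASTPM, and −0.047 and −0.18 without them. Fgr, which myeloid cells of the blood also express, was at 4494 and 3929.7 normalized counts in the WT K/BxN libraries of high marker share and at 226 and 299 in the others, and its log2 difference of 3.03 (limma adjusted p = 0.699) was 1.02 without the 4 libraries.

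For the 20 tested Syk targets and adaptors the medians were −0.083 in WT and −0.068 in TASTPM, and −0.082 and 0.18 without the 4 libraries. Plcg1, phospholipase C gamma 1, had the smallest p of them in WT, at 417, 568 and 355 normalized counts under Control ST and at 203, 151, 154 and 156 under K/BxN ST. Its 4 K/BxN values were all below the Control values, as for 3.71% of all tested genes, with a log2 difference of −1.40 (limma adjusted p = 0.568) that was −1.49 without the 4 libraries. In TASTPM the difference was −0.49, and 0.20 without them. Tec, a kinase of the Btk family, had −0.10 in WT and −0.93 in TASTPM (limma adjusted p = 0.964), and 0.086 and −0.63 without the 4. Vav1 and Pik3ap1, the most abundant of this list, had −0.34 and −0.44 in WT and 0.0050 and 0.016 in TASTPM. Without the 4 libraries these were −0.18 and −0.24 in WT and 0.24 and 0.46 in TASTPM.

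For the 11 inhibitory enzymes and adaptors the medians were 0.22 and 0.074, and 0.043 and 0.19 without the 4 libraries. Inpp5d, which encodes SHIP1, the phosphatase that Fcgr2b recruits, had log2 differences of −0.36 in WT and −0.088 in TASTPM (limma adjusted p = 0.791 and 0.988). Without the 4 libraries these were −0.13 and 0.52, so that the direction turned in TASTPM, where no gene was called with those libraries left out. Dok3, an adaptor that dampens ITAM signalling, was at 902, 702.5 and 638 normalized counts in WT Control ST and at 2657, 1940.5, 1138 and 1008 in WT K/BxN ST, with every K/BxN value the higher, as for 3.67% of all tested genes. Its log2 difference was 1.08 (limma adjusted p = 0.538) and 0.53 without the 4 libraries. Ptprc, which encodes CD45, had 0.22 in WT and 0.49 in TASTPM, and −0.055 and 0.23 without the 4.

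Among 17 genes of the phagocytic cup and actin the medians were 0.14 and 0.067, and −0.046 and 0.091 without the 4 libraries. Cdc42 and Rac1, the most abundant, had 0.073 and 0.089 in WT and 0.027 and 0.067 in TASTPM, and −0.046 and −0.11 in WT and −0.13 and 0.0033 in TASTPM without the 4. Rac2, the Rac protein of blood cells, had 0.62 in WT and 1.01 in TASTPM, and −0.092 and 0.17 without the 4 libraries. Myo1f had 0.65 in WT (limma adjusted p = 0.658), and 0.41 without them.

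Of the other Fc receptors and Fc receptor-like genes 3 were tested. Fcrls, a gene of resting microglia and at a mean of 34644 normalized counts the most abundant, had −0.78 in WT and −0.73 in TASTPM, and −0.27 and −0.16 without the 4 libraries. Fcrl1 had 0.20 and −0.79, and 0.67 and −0.61 without them, and Fcrlb, at 0 in 2 of the 3 WT Control libraries and at most 68.1 normalized counts anywhere, is too low for a fold. Tyrobp, which encodes DAP12, the other ITAM adaptor of microglia, had 0.089 and 0.035, and −0.096 and −0.24 without the 4. Pirb, which encodes an inhibitory receptor of myeloid cells, at 5332 and 6971 in the 2 WT K/BxN libraries of high marker share and at 907 and 1378 in the others, had a log2 difference of 1.15 in WT that was −0.078 without the 4, and Hcst, which encodes the adaptor DAP10, had 0.63 and then 0.060. Over the 4 tested genes of that list the medians were 0.89 in WT and 0.68 in TASTPM, and −0.087 and −0.31 without the 4 libraries.

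B2m, the partner of FcRn, had −0.26 in WT and −0.58 in TASTPM (limma adjusted p = 0.964), and −0.10 and −0.66 without the 4 libraries. Ube2v2, which makes ubiquitin chains with Ube2n downstream of Trim21, had −0.62 and −1.03 (limma adjusted p = 0.964 in TASTPM), and −0.38 and −1.08 without the 4. Vcp had 0.17 and 0.14, and 0.041 and 0.029 without them. Over the 6 partners of Fcgrt and Trim21 the medians were 0.20 and −0.014, and 0.014 and −0.41 without the 4 libraries.

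Interferon induces Fcgr1, Fcgr4 and Trim21 in macrophages, and 19 interferon-stimulated genes were tested beside them. Of these 13 had a positive log2 difference in WT and 16 in TASTPM, with medians of 0.21 and 0.57 beside 0.057 and 0.0056 over all tested genes, and 14 and 13 were positive without the 4 libraries, with medians of 0.20 and 0.53. Irf7 was at 253, 387 and 185 normalized counts in WT Control ST and at 1383, 1268, 363 and 252 in WT K/BxN ST, the first 2 of these being the libraries of high marker share. The log2 difference of Irf7 in WT was 1.26 (limma adjusted p = 0.838) and 0.20 without the 4 libraries. Oasl2 had 0.51 in WT and 1.58 in TASTPM (limma adjusted p = 0.964), and −0.097 and 0.73 without the 4. Irf9 and Irf1, the most abundant, had 0.43 and 0.031 in WT and 0.19 and 0.38 in TASTPM, and 0.32 and −0.30 in WT and 0.27 and 0.37 in TASTPM without the 4. In TASTPM Irf7 had 4.198, with 1 Control library listed at 0, so that the size rests on the pseudocount, and 2.80 without the 4. In WT and TASTPM the log2 differences were −0.71 and −0.55 for Fcgr1, 1.22 and 0.34 for Fcgr4, and −0.28 and 0.21 for Trim21.

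**Figure D5:**
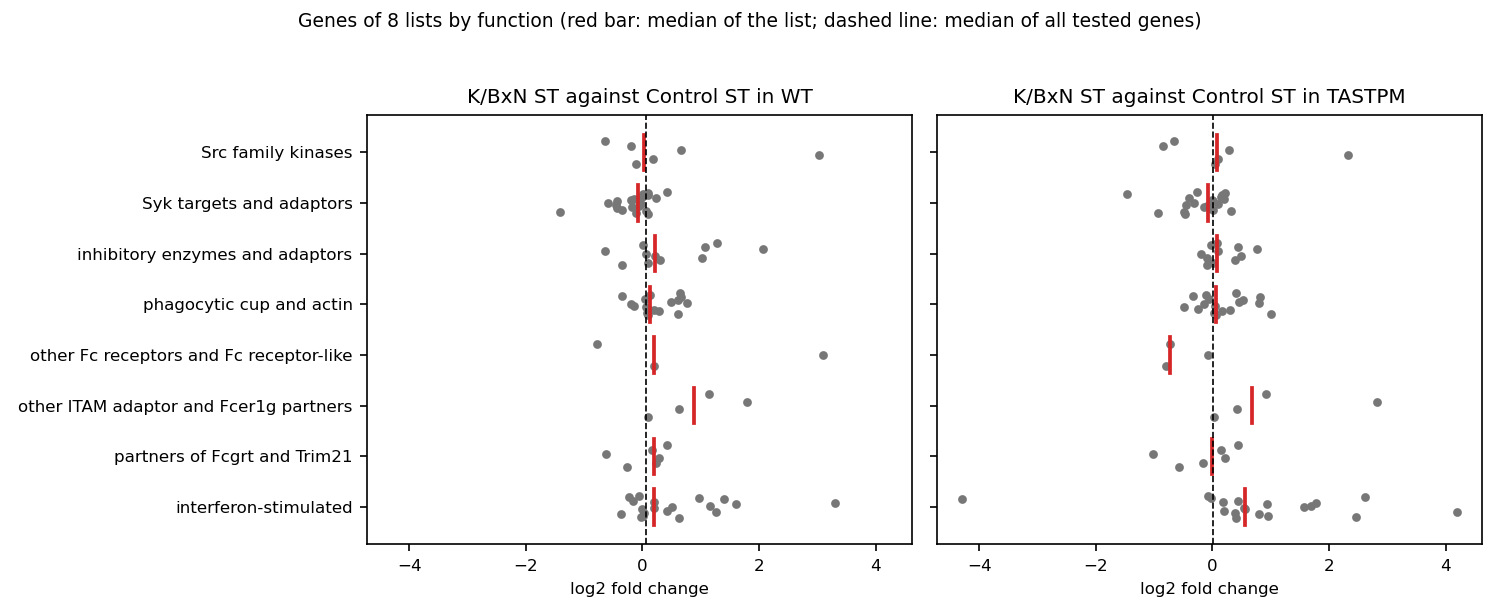
Limma log2 differences between K/BxN ST and Control ST in WT and TASTPM for the 86 tested genes of 8 lists (points), with the median of each list (red bar) and of all tested genes (dashed line). The medians of the Src kinase list, 0.033 in WT and 0.070 in TASTPM, lie close to the dashed line, and those of the interferon-stimulated list, 0.21 and 0.57, lie to its right.

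The genes whose pattern over the 14 libraries was most like that of each receptor were found by Pearson r of log2 values, as a description over libraries that share groups and marker share. Fcgr1 was nearest to Ctsl (r = 0.944 over 14 libraries, 0.787 over the 10 of low marker share), Abhd6 (0.936 and 0.719) and Itm2b (0.927 and 0.746). Fcgr4 was nearest to Pla2g7 (0.929 and 0.899), Bri3bp (0.918 and 0.860) and Ptpn11 (0.914 and 0.925). Among the genes nearest to Fcgr3 were Il6 (0.905 and 0.854) and P4ha1 (0.890 and 0.639), and Fcer1g was nearest to Fth1 (0.916 and 0.902), Dnajc19 (0.910 and 0.908) and Cwc15 (0.904 and 0.933). Fcgr2b was nearest to Kif5a (0.821), Hspd1-ps3 (0.819) and A430105J06Rik (0.816), which are sparse, with Kif5a and A430105J06Rik at 0 in at least 1 library. Syk was nearest to Mrpl55 (0.840), Nlrx1 (0.837) and Gcat (0.824), Fcgrt to Agfg2 (0.818), Scd2 (0.809) and Dcaf7 (0.799), and Trim21 to Coq10a (0.807), Rbm12b2 (0.776) and Gm7030 (0.730). None of the 8 was among the nearest genes of another. Among themselves Fcgr1 and Fcgr3 had r = 0.69 over the 14 libraries and 0.13 over the 10, Fcgr1 and Fcgr4 −0.69 and −0.31, and Fcgr2b and Fcgr3 0.50 and 0.76.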

How the data were processed

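RNA of sorted microglia was measured in 14 libraries of 4 groups (SMART-Seq v4 cDNA, paired-end reads of 150 bases). The deposited signal values are read counts per gene that the authors divided by 1 size factor per library. Per the submitters' processing notes and the study's methods, FastQC 0.11.9, HISAT2 2.1 (GRCm39, Ensembl 104), featureCounts 1.5.2, Picard and DESeq2 were used, and genes with few counts were removed. Divided by the value of 1 read of its library, 100.0% of values were whole within 0.05 reads, so that whole reads were recovered for count tests. The 7 repeated entries among 14336 were merged, which left 14329 genes. Group membership came from the header above each column, and only the TASTPM K/BxN columns matched single labels.

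The 12645 genes that reached 10 reads in 7 or more libraries were tested by limma 3.58.1 in R 4.3.3 on log2(normalized count + 1), with 1 fit to the 4 groups and Benjamini-Hochberg adjustment over all genes. Each gene's variance was moderated towards a trend over genes of similar level. A call needed an adjusted p below 0.05 and an absolute log2 difference above 1. Two-sided exact permutation tests over libraries were run for each of the 8 genes in 5 comparisons, and their p values were not adjusted. Alternatives were edgeR 4.0.16 (quasi-likelihood) and DESeq2 1.42.0 on recovered reads, other scalings, a pseudocount of 10, no filter, the groups of a comparison alone, marker level as a covariate, leaving out the 4 libraries whose marker share was over 5 times the median, and leaving out each library. The model code was tested on simulated data. Python 3.11.15 was used for the rest. Of each pathway list, the 2 genes with the highest mean and the 2 with the smallest unadjusted p are named, and for each of the 8 genes the 3 nearest by Pearson r. The 8 genes and the lists were chosen with earlier results of these data known. Positions and lengths are from the GENCODE annotation of GRCm39, later than the authors' Ensembl release. Sequences came from that genome and from RefSeq promoters. Confidence intervals are 95% intervals of the limma fit. A few items, among them genes that the rules for named genes would name, are not reported here.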

Additional observations from a re-analysis of the deposited data

Results flagged for a closer look

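Fcgr2b, the inhibitory receptor, was at 9865, 10068, 9866 and 8806 normalized counts in the 4 WT libraries after K/BxN serum, and the fourth stood apart from the rest. Its gap to the next library was 0.839 of the group's range, above Dixon's 95% critical value for 4 samples. The 8 genes were checked in both groups of 4, 16 checks in all, and chance flags about 1 in 20. This library had a low share of monocyte and neutrophil markers (0.127% of reads), and the cause of its lower value was not tested. Without it the log2 difference of Fcgr2b between K/BxN ST and Control ST in WT was −0.12.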

How the results depend on the processing

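Over 48 log2 differences of the 8 genes, 1034 of 1088 alternative values kept the direction, 54 in 18 of the results reversed it, and none crossed the threshold; the cause was not tested. In WT, Fcer1g reversed with TMM (0.0069), upper-quartile scaling (0.026) and edgeR (0.0087), and Syk without the 4 libraries of high marker share (−0.044). In TASTPM, Fcgr2b reversed with upper-quartile scaling (−0.017) and Fcgr4 with the marker covariate (−0.27) and without the 4 libraries (−0.60). In the interaction, Fcgr3 reversed with upper-quartile scaling (−0.060), and Fcgrt (0.26) and Syk (0.21) without the 4. Under K/BxN ST, Fcgr4 (−0.24), Fcer1g (−0.078) and Fcgrt (0.17) reversed without the 4, as did averaged Trim21 (0.073, and 0.096 with the covariate). The remaining reversals came from leaving out single libraries, with ranges in WT of −0.091 to 0.12 (Fcer1g), −0.21 to 0.028 (Fcgrt) and −0.64 to 0.047 (Trim21), in TASTPM of −0.016 to 0.066 (Fcgr2b), −0.049 to 0.76 (Fcgr4) and −0.24 to 0.0042 (Fcgrt), in the interaction of −0.083 to 0.13 (Fcgr3), −0.34 to 0.00075 (Fcer1g), −0.17 to 0.13 (Fcgrt) and −0.27 to 0.047 (Syk), between genotypes under Control ST of −0.23 to 0.066 (Fcgrt) and −0.62 to 0.069 (Trim21), under K/BxN ST of −0.19 to 0.21 (Fcgr1), −0.13 to 0.68 (Fcgr4) and −0.075 to 0.12 (Fcer1g), and averaged of −0.22 to 0.13 (Trim21). None of the 8 was called under any alternative, and only Fcgr4 reached the absolute log2 difference above 1 that a call needs. Of all genes, limma called 1 in WT, against 0 with a pseudocount of 10, edgeR, the groups alone or without the 4 libraries, 3 with the covariate, 127 with DESeq2 and 0 to 17 without single libraries. Elsewhere limma called 0, and DESeq2 called 16 in TASTPM, 12 in the interaction, 41 between genotypes under Control ST and 179 averaged. The covariate called 1 under Control ST and 1 averaged, and leaving out the 4 called 1 under Control ST. Leaving out single libraries called 0 to 1 in TASTPM, 0 to 3 in the interaction, 0 to 11 under Control ST and 0 to 9 averaged. No paired analysis was possible because the replicate numbers are not shared. With 3 or 4 libraries a group the 95% intervals of the serum differences of Fcgr1, Fcgr4, Syk and Trim21 span more than a log2 unit, which limits how closely their sizes are known.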
